A study of Mus musculus with 12 samples.

Results

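The lysosomal hydrolases and membrane proteins described here are 37 genes, chosen by symbol, among the 23420 symbols of a mouse expression table. All 37 had a row, and all 37 were above 0 in at least 3 of the 12 libraries, the filter that left 10023 symbols for testing. RNA came from the epidermis, from tubes of 100 cells gated as CD45+CD3-CD11b+MHCII+, a phenotype of Langerhans cells and related myeloid cells. There were 4 groups of 3 libraries: Cbfβ2 knockout mice at 1.5 months after birth (1.5M KO), wild-type mice of that age (1.5M wt), Cbfβ2 knockout mice at day 5 after birth (P5 KO) and wild-type mice at day 5 (P5 wt). Cbfβ2 is a splice form of the core-binding factor beta subunit, the partner of Runx transcription factors. The strain, the cells in which the form is missing and whether the 3 library preparations of a group came from separate animals are not given in the sources used here, so p-values measure the spread between preparations, which may be technical.

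Lysosomes are the acidic organelles in which cells digest what they take up and what they recycle. Their soluble enzymes are proteases (cathepsins, legumain), glycosidases, lipases and sulfatases, and heavily glycosylated membrane proteins such as LAMP1 and LAMP2 line the wall. In antigen-presenting cells cathepsins and legumain also cut antigens and the invariant chain that guards MHC class II molecules, while macrophages hold large amounts of these enzymes for degradation.

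Every value below is a scaled molecule count: molecules counted by barcode from the 3' end of transcripts and scaled by the authors so that each library sums to 37092. One molecule is worth 0.479 to 1.20 on this scale, depending on the depth of the library, which was 74620 to 77420 molecules for 1.5M KO and 40254 to 51848 for 1.5M wt. Those of day 5 had 30913 to 51001 molecules (P5 KO) and 34192 to 52208 (P5 wt). Fold changes are differences of group means of log2(scaled count + 1), given with the standard error (SE) and the adjusted p of a limma fit to all 12 libraries, and a gene is called at an adjusted p under 0.05. Of the sort markers, Ptprc (CD45) was between 12.7 and 38.8 and Itgam (CD11b) between 1.43 and 13.6 in the 12 libraries. Ptprc rose in 1.5M KO (log2 fold change 1.03, SE 0.25, adjusted p = 0.0118), a call lost without 1.5M KO library 1 (0.059) or 2 (0.0848), without 1.5M wt library 2 (0.0571), and with all libraries thinned to the depth of the shallowest (0.237). The MHC class II genes H2-Aa, H2-Ab1 and H2-Eb1 and the invariant chain gene Cd74 were the bulk of the sort markers, which summed to between 2240 and 2608 in 1.5M KO, against 3781 to 4220 in 1.5M wt, and to between 980 and 1279 in P5 KO, against 1531 to 1602 in P5 wt. All 4 genes fell in 1.5M KO, with log2 fold changes from −1.16 (H2-Ab1) to −0.63 (Cd74), and 3 of them, all but H2-Eb1, fell in P5 KO. After quantile normalization the calls of H2-Aa and Cd74 were lost at 1.5 months (adjusted p = 0.721 and 0.452). The day 5 calls were lost in 8 of 21 alternatives for H2-Aa, 5 for H2-Ab1 and 4 for Cd74, with adjusted p up to 0.111, 0.111 and 0.0964, and all 3 calls were lost without P5 KO library 1. The part of these gate markers in the lysosomal differences was not tested. The CD3 genes were at 0 in all libraries except P5 KO library 3, where they summed to 1.20.

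The 37 lysosomal genes together were lowest in the 1.5M wt libraries. Their summed scaled count was 490.3, 518 and 564 in the 3 libraries of 1.5M KO, against 252.5, 221 and 246 in 1.5M wt. At day 5 it was 521.5, 524 and 608.5 in P5 KO, against 469, 469 and 464 in P5 wt. The 1.5M wt libraries did not overlap those of any other group, and the P5 KO libraries all lay above those of P5 wt. Without Psap, the day 5 sums overlapped, with 422, 407 and 474 in P5 KO, against 419, 397 and 423 in P5 wt, whereas those of 1.5 months did not, with 419, 444 and 474 in 1.5M KO, against 229, 205 and 223 in 1.5M wt. As a share of all molecules the genes made up 1.41% in 1.5M KO, against 0.647% in 1.5M wt, and 1.49% in P5 KO, against 1.26% in P5 wt. These sums are a description of genes chosen with earlier results known, and no test was run on them.

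**Figure D1:**
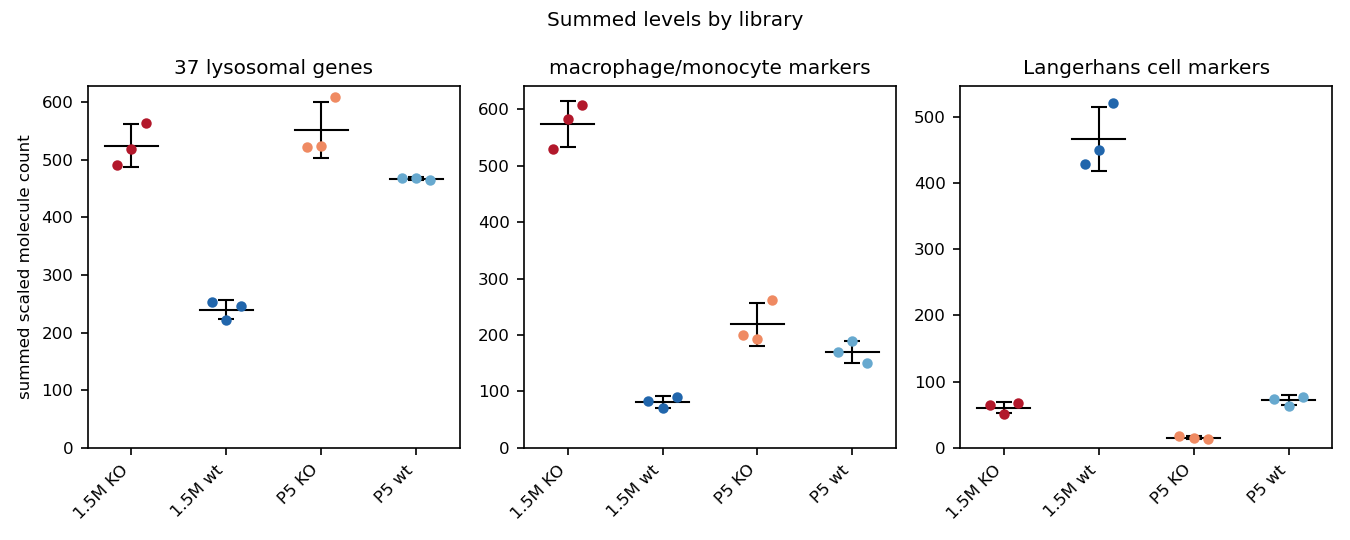
Summed scaled molecule counts (vertical axes) of the 37 lysosomal genes, of 14 macrophage and monocyte markers and of 8 Langerhans cell markers, for the 4 groups on the horizontal axis. Points are libraries, and bars are the mean ± SD (n = 3). The 1.5M wt libraries are the lowest in the first 2 panels (221 to 252.5 and 70.8 to 90.6) and the highest in the third (429 to 521.5).

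Of the 37 genes, 24 had their lowest group mean in 1.5M wt, where 39.3% of all genes tested had theirs. The lowest mean was that of 5 genes in 1.5M KO (26.6% of all genes), 7 in P5 KO (19.3%) and 1 in P5 wt (14.8%). The highest mean belonged to 1.5M KO for 16 genes (19.1% of all genes), to 1.5M wt for 0 (18.8%), to P5 KO for 11 (30.7%) and to P5 wt for 10 (31.4%). Markers of cell types also differed between these groups. The 14 macrophage and monocyte markers in the table summed to between 529 and 608.5 in 1.5M KO, against 70.8 to 90.6 in 1.5M wt, and 8 of the 12 that were tested rose in 1.5M KO. Mrc1, Cx3cr1, Fcgr1, Cd163 and Ccr2 were at 0 in all 3 libraries of 1.5M wt, and Mertk was at 0 in all 4 groups. The 8 Langerhans cell markers summed to between 50.7 and 67.1 in 1.5M KO, against 429 to 521.5 in 1.5M wt, and 6 of 8 fell. At day 5 they summed to between 13.2 and 17.7 in P5 KO, against 62.9 to 77.2 in P5 wt, and 6 of 8 fell. The macrophage and monocyte markers summed to between 193.5 and 263 in P5 KO, against 150 to 189 in P5 wt. Of the 12 tested, 4 rose at day 5, where Psap alone of the 37 lysosomal genes was called. Over all genes tested, 3.24% rose and 2.04% fell at 1.5 months, and 1.15% rose and 0.649% fell at day 5. In a sorted population a smaller share of cells of one type and less RNA of a gene per cell cannot be told apart, and the part of these markers in the lysosomal differences was not tested.

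TFEB, the transcription factor that switches on many lysosomal genes, binds a motif built around the E-box CACGTG, called the CLEAR element in its longer form GTCACGTGAC. Runx factors, the partners of the missing subunit, bind a core written TGTGGT. RefSeq promoters of 300 bases (250 before and 50 after the start site, GRCm38.p6) were matched by symbol for 32 of the 37 genes. The E-box was found in 10 of those 32 and in 8.09% of all 27025 symbols with a promoter. The CLEAR form was found in 0 of the 32 and in 0.370% of all symbols. The Runx core, on either strand, was found in 6 of the 32 and in 18.9% of all symbols. Of the 9 matched genes called higher in 1.5M KO than in 1.5M wt, only Lgmn held an E-box. A Runx core was found in 2 of these 9, Lgmn and Psap, against the 18.9% of all symbols. The upstream start site of Psap held neither motif. A match is a description of letters, not a binding site. Promoters are shown for Lgmn, which had the largest fold change between genotypes, at both of its annotated start sites, for the start site of Psap that holds a Runx core, and for Lamp1 and Ctsd, which hold several E-boxes and were not called. Capitals mark E-boxes and Runx cores (TGTGGT, or ACCACA on the other strand), which do not overlap in these 5 windows, and each sequence is given 5′ to 3′ on the strand of its gene.
Lgmn, upstream start (chr12:102439679-102439978, minus strand): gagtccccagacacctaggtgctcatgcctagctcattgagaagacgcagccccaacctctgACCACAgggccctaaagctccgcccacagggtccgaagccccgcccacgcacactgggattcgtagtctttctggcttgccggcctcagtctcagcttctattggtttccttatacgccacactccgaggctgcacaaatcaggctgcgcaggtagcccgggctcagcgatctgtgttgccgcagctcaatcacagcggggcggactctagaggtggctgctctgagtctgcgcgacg
Lgmn, downstream start (chr12:102439043-102439342, minus strand): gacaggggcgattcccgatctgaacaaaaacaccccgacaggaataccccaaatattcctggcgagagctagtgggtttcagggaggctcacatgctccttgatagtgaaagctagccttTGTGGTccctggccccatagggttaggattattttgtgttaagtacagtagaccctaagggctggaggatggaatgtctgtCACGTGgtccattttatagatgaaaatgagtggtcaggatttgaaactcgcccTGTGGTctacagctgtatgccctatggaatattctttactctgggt
Psap, downstream start (chr10:60284211-60284510, plus strand): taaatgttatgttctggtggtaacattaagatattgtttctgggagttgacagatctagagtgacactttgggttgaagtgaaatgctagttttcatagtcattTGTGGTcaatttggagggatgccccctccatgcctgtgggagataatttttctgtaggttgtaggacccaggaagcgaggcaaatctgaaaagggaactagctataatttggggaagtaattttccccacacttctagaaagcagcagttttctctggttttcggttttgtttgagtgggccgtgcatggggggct
Lamp1 (chr8:13158911-13159210, plus strand): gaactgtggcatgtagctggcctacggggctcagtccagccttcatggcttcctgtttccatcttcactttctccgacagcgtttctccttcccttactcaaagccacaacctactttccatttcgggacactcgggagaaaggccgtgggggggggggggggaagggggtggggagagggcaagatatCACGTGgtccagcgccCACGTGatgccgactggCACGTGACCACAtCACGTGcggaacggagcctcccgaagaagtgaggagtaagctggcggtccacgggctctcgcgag
Ctsd (chr7:142387778-142388077, minus strand): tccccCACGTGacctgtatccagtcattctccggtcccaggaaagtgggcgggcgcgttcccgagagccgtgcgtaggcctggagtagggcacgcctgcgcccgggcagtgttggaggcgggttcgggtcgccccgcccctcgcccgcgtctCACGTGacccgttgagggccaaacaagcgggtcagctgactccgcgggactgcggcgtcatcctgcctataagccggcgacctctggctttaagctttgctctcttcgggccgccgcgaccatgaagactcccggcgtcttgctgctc
The sequences show 1 E-box and 3 Runx cores over the 2 start sites of Lgmn, 1 Runx core and no E-box at that start of Psap, 4 E-boxes and 1 Runx core at Lamp1, and 2 E-boxes at Ctsd.

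What the knockout changes in lysosomal genes of the cells at 1.5 months was read from 1.5M KO against 1.5M wt. The called genes were mostly those of proteases and of membrane and sterol transport proteins, led by the protease gene Lgmn at about 20.5 times its mean in 1.5M wt. By role, 4 of 8 cathepsins, 2 of 4 other proteases and cofactors, 3 of 9 membrane and sterol transport proteins, 1 of 8 glycosidases and 1 of 7 lipid, sulfate and thioester hydrolases rose. In that order, the median log2 fold changes were 0.82, 1.14, 1.15, 0.69 and 1.14, so the fold changes did not follow the counts. Many genes of the last 2 roles averaged under 5 in every group, a level at which no gene was called. Of the 37 genes, 11 rose and 0 fell, where 3.24% of all genes tested rose and 2.04% fell. The median log2 fold change of the 37 was 0.90, and that of all genes tested was 0.09. For 21 of the 37, all 3 libraries of 1.5M KO lay above all 3 of 1.5M wt, and for 0 they lay below. That was the case for 13.9% of all genes tested in the upward and 7.18% in the downward direction.

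Among the proteases, Lgmn encodes legumain, which cuts after asparagine (chromosome 12, 102394082 to 102439728). It had 29.3, 38.3 and 35.5 scaled counts in 1.5M KO, against 0.921, 1.43 and 2.67 in 1.5M wt. The 1.5M wt values rest on 6 molecules over the 3 libraries, and those of 1.5M KO on 212. Its log2 fold change was 3.77 (SE 0.28, adjusted p = 2.84e-09), and the call was kept in all 21 alternative settings.

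Of the 8 cathepsins, 4 rose and 0 fell. Ctsb (chromosome 14, 63122462 to 63145923), a cysteine protease, had 45.1, 44.2 and 48.4 in 1.5M KO, against 22.1, 16.5 and 19.5 in 1.5M wt, with no overlap (log2 fold change 1.21, SE 0.19, adjusted p = 0.000193). Ctsz, a carboxypeptidase, had 20.6, 19.9 and 26.4 in 1.5M KO, against 8.29, 5.72 and 2.67 in 1.5M wt (1.92, SE 0.33, adjusted p = 0.000535). Ctsc, the dipeptidyl peptidase that activates granule serine proteases, had 27.3, 26.3 and 26.4 in 1.5M KO, against 6.45, 8.58 and 9.77 in 1.5M wt (1.59, SE 0.33, adjusted p = 0.00346). All 3 genes separated the 2 groups fully. Ctss, the cathepsin known for the last cut of the invariant chain (chromosome 3, 95526786 to 95556405), had 75.3, 70.6 and 85.3 in 1.5M KO, against 48.8, 42.9 and 58.6 in 1.5M wt. The difference was smaller than for the others (0.62, SE 0.17, adjusted p = 0.0325) and, on this number of libraries, close to the threshold. It was lost without 1.5M KO library 1 (adjusted p = 0.0764), 2 (0.0668) or 3 (0.176), without 1.5M wt library 1 (0.093) or 2 (0.166), with a pseudocount of 10 (0.0548), in a fit of only the 6 libraries compared (0.0564), and at equal depth (0.0853). Equal depth means that the values of each symbol were rounded to whole molecules and the libraries then thinned at random to the 30966 molecules of the shallowest one, which had 30913 before rounding. The remaining 4 cathepsins were not called. Ctsh, an aminopeptidase, had 17.3, 20.9 and 26.4 in 1.5M KO, against 28.6, 17.9 and 23.1 in 1.5M wt, so its groups overlapped. Ctsa, which protects the neuraminidase and galactosidase, averaged 15.5 ± 3.25 in 1.5M KO and 9.29 ± 1.73 in 1.5M wt (SD, n = 3 each). Ctsd, a pepsin-like aspartic protease, averaged 2.75 ± 1.93 in 1.5M KO, from 17 molecules, and 0.91 ± 0.922 in 1.5M wt, from 3, with overlap. Ctsl, a cysteine protease, was near the detection limit in both groups, with 0.166 ± 0.287 in 1.5M KO and 0.535 ± 0.471 in 1.5M wt.

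Psap and Grn encode precursors that are cut into smaller lysosomal proteins. Psap (chromosome 10, 60277628 to 60302600), which yields the saposins needed to break down sphingolipids, had 71.5, 74.1 and 89.6 in 1.5M KO, against 23.0, 16.5 and 23.1 in 1.5M wt. The groups were far apart (1.87, SE 0.21, adjusted p = 1.47e-06). Grn, the progranulin gene, had 34.5, 33.3 and 28.7 in 1.5M KO, against 20.3, 27.2 and 24.9 in 1.5M wt, and was not called although the groups did not overlap. Tpp1, a tripeptidyl peptidase, averaged 2.74 ± 0.969 in 1.5M KO and 2.56 ± 2.41 in 1.5M wt.

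Asah1, the acid ceramidase gene, had 5.27, 5.47 and 6.71 in 1.5M KO, against 0, 0.715 and 0.888 in 1.5M wt, the 1.5M wt values from 2 molecules in all (2.20, SE 0.41, adjusted p = 0.00123). It was the 1 called gene among 7 for lipid, sulfate and thioester hydrolases. Smpd1, acid sphingomyelinase, had 1.92, 1.99 and 1.92 in 1.5M KO, against 0, 0 and 0.888 in 1.5M wt, and its adjusted p was 0.0781. The sulfatase genes Arsa and Galns also separated the groups without a call, with Galns at 0 in all 3 libraries of 1.5M wt and at 1.92, 1.49 and 0.479 in 1.5M KO. The last value is 1 molecule, and 1 molecule is worth 0.715 to 0.921 in the shallower 1.5M wt libraries. The separation of Galns thus rests on a value that those libraries could not resolve from 0.

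Among the 8 glycosidases 1 rose. Gusb, β-glucuronidase (chromosome 5, 129989011 to 130003049), had 11.99, 9.94 and 16.3 in 1.5M KO, against 2.76, 5.72 and 0.888 in 1.5M wt (1.89, SE 0.38, adjusted p = 0.00226). Hexa, a hexosaminidase gene, had 9.11, 9.44 and 8.14 in 1.5M KO, against 3.69, 2.15 and 4.44 in 1.5M wt, without overlap but also without a call (adjusted p = 0.166). Man2b1, lysosomal α-mannosidase, had 11.5, 14.9 and 20.6 in 1.5M KO, against 15.7, 4.29 and 11.6 in 1.5M wt, and the groups overlapped. The others, Gaa, Gla, Glb1, Manba and Neu1, averaged under 5 in every group. Gla, α-galactosidase, is uncertain because some of its values are fractions of a molecule.

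Of the 9 genes for membrane proteins and sterol transport, 3 rose. Npc2, which carries cholesterol inside the lysosome (chromosome 12, 84754559 to 84773112), had 25.4, 19.9 and 21.1 in 1.5M KO, against 8.29, 7.15 and 7.11 in 1.5M wt (1.44, SE 0.23, adjusted p = 0.000252). Its membrane partner Npc1 averaged 7.30 ± 1.45 in 1.5M KO and 4.94 ± 1.20 in 1.5M wt (SD, n = 3 each) and was not called. Lamp2, a structural protein of the lysosomal wall, had 8.63, 15.4 and 13.9 in 1.5M KO, against 5.53, 3.58 and 1.78 in 1.5M wt (1.61, SE 0.36, adjusted p = 0.00627). Laptm4a, a transmembrane protein of late endosomes, had 8.63, 8.95 and 5.27 in 1.5M KO, against 0.921, 3.58 and 1.78 in 1.5M wt (1.54, SE 0.37, adjusted p = 0.0123). Neither gene had overlapping groups. The Lamp2 call was lost without 1.5M KO library 2 (adjusted p = 0.0626) or 1.5M wt library 3 (0.052). The Laptm4a call was lost without 1.5M KO library 1 (0.0713) or 2 (0.0848), without 1.5M wt library 1 (0.0793), and at equal depth (0.22).

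Lamp1, Laptm5 and Cd68 lay just outside the threshold. Lamp1 had 18.2, 20.4 and 16.8 in 1.5M KO, against 11.98, 8.58 and 7.996 in 1.5M wt (0.90, SE 0.29, adjusted p = 0.0761). Laptm5, a lysosomal protein of blood cells, had 25.9, 21.4 and 20.6 in 1.5M KO, against 13.8, 16.5 and 3.55 in 1.5M wt (adjusted p = 0.0628). Cd68, the macrophage lysosomal glycoprotein also called macrosialin, had 6.23, 11.9 and 10.5 in 1.5M KO, against 4.61, 3.58 and 1.78 in 1.5M wt (1.31, SE 0.40, adjusted p = 0.0583). All 3 separated the groups. Scarb2, the receptor that carries β-glucocerebrosidase, and the calcium channel gene Mcoln1 averaged under 1 in both groups of this age. Tfeb itself averaged 0.971 ± 0.480 in 1.5M KO and 1.42 ± 1.88 in 1.5M wt, from 6 and 5 molecules, which is too few to show a difference.

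**Figure D2:**
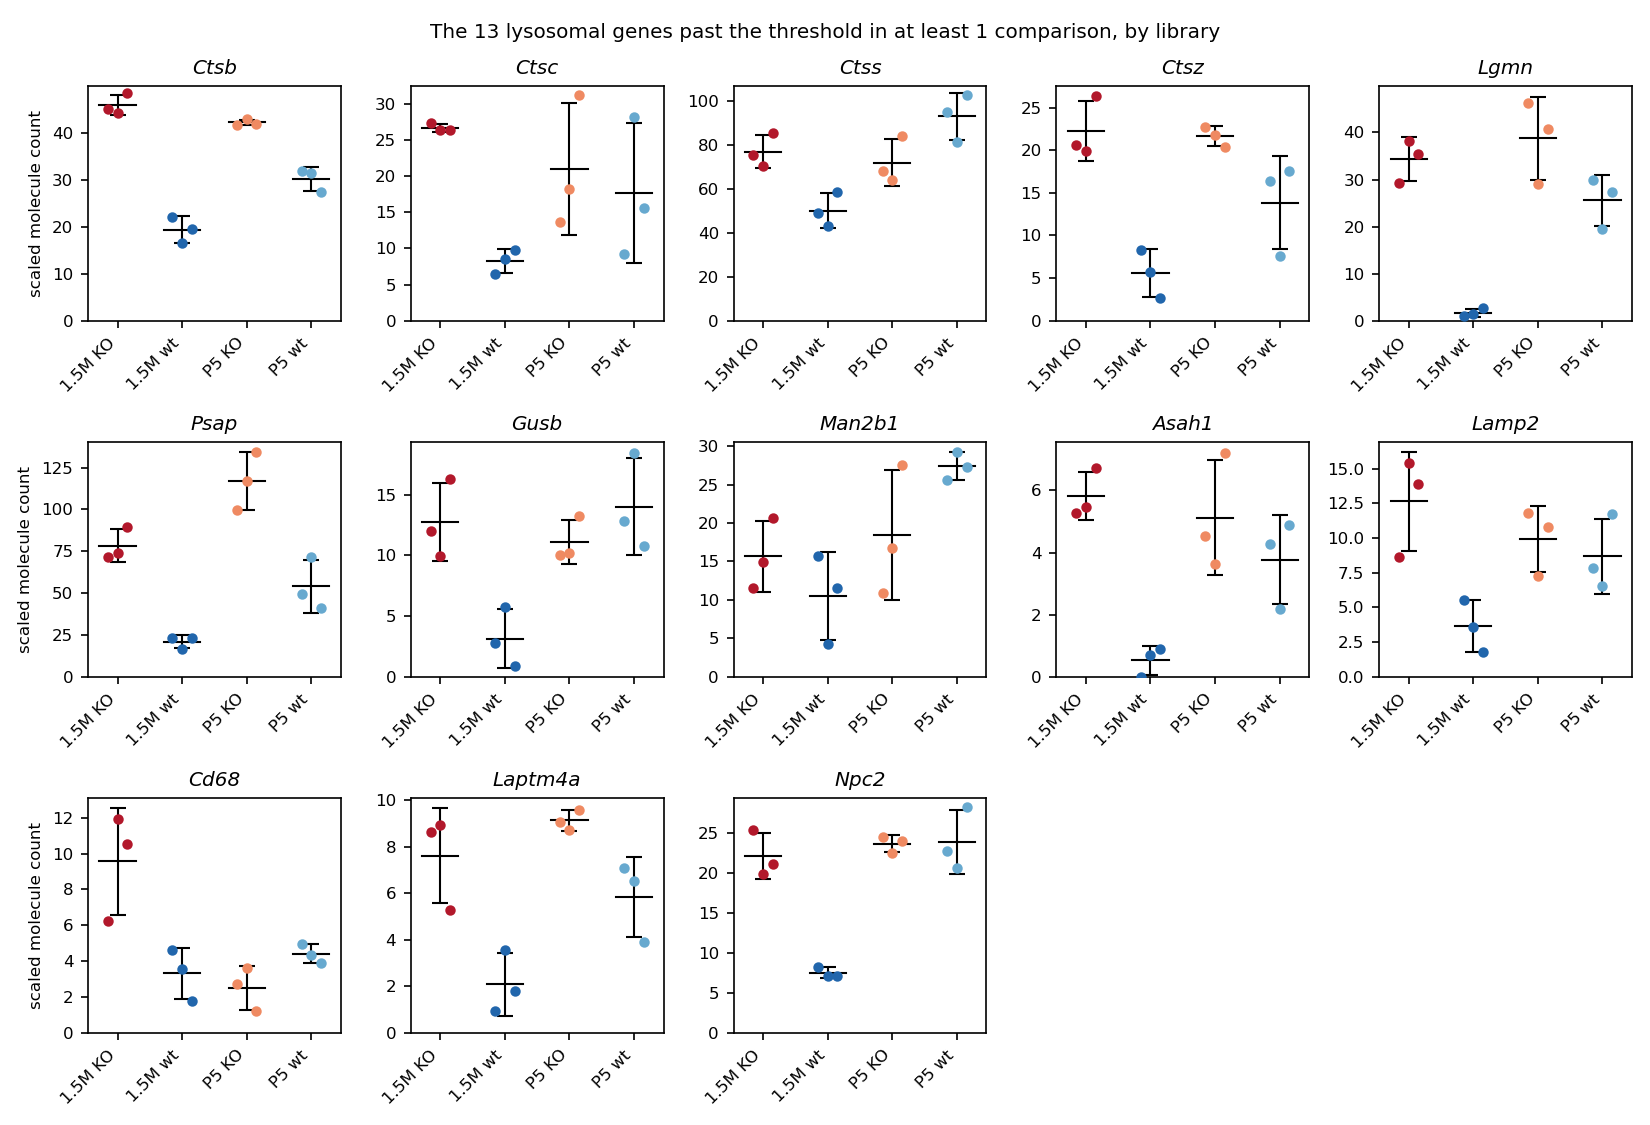
Scaled molecule counts (vertical axes, each from 0) of the 13 lysosomal genes called in at least 1 comparison, by group on the horizontal axis. Points are libraries, and bars are the mean ± SD (n = 3). In the 1.5M wt column Lgmn lies between 0.921 and 2.67, against 29.3 to 38.3 in 1.5M KO, 29.1 to 46.3 in P5 KO and 19.5 to 29.8 in P5 wt.

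At day 5 the same contrast, P5 KO against P5 wt, gave a single called gene. Psap rose, with 99.9, 117 and 134 in P5 KO, against 49.7, 71.6 and 41.0 in P5 wt (log2 fold change 1.13, SE 0.21, adjusted p = 0.00456), and the groups did not overlap. The other 36 were not called, so 1 of 37 was higher and 0 were lower, against 1.15% and 0.649% of all genes tested. The median log2 fold change of the 37 was 0.09, and that of all genes was −0.01. The Psap call was lost at equal depth (adjusted p = 0.0798), where 0 genes of the 37 were called, and without P5 wt library 1 the count became 2. All P5 KO libraries lay above all P5 wt libraries for 7 of the 37 genes and below for 3, against 6.23% and 6.02% of all genes tested.

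Several genes that rose at 1.5 months had like levels in both genotypes at day 5. Npc2 had 24.5, 22.5 and 24.0 in P5 KO, against 22.7, 20.6 and 28.3 in P5 wt. Gusb had 9.99, 10.2 and 13.2 in P5 KO, against 12.8, 18.4 and 10.7 in P5 wt. Both genes had overlapping groups. Ctss ran the other way, with 68.1, 64.0 and 84.0 in P5 KO, against 95.2, 81.4 and 103 in P5 wt, although 1 pair of libraries overlapped and it was not called (adjusted p = 0.358). Lgmn had 46.3, 29.1 and 40.8 in P5 KO, against 29.8, 19.5 and 27.3 in P5 wt, again with overlap. Ctsb had 41.8, 42.9 and 42.0 in P5 KO, against 32.0, 31.5 and 27.3 in P5 wt, a separation that was not called (adjusted p = 0.289). Lamp1 had 32.7, 25.5 and 26.4 in P5 KO, against 24.9, 14.1 and 9.77 in P5 wt (adjusted p = 0.171). The libraries of both genes stood apart by group, as did those of Ctsz, with 22.7, 21.8 and 20.4 in P5 KO, against 16.3, 7.59 and 17.6 in P5 wt, and of Laptm4a, with 9.08, 8.73 and 9.60 against 7.10, 6.51 and 3.91 in P5 wt.

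The levels of Ctsc, Ctsh, Lamp2, Asah1 and Laptm5 overlapped between the genotypes at day 5. Ctsc had 13.6, 18.2 and 31.2 in P5 KO, against 9.24, 28.2 and 15.6 in P5 wt, a wide spread within both groups. Ctsh had 17.3, 30.5 and 28.8 in P5 KO, against 21.3, 26.0 and 22.5 in P5 wt. Lamp2 had 11.8, 7.27 and 10.8 in P5 KO, against 7.82, 6.51 and 11.7 in P5 wt. Neither separated the genotypes. Asah1 had 4.54, 3.64 and 7.20 in P5 KO, against 4.26, 2.17 and 4.88 in P5 wt. Laptm5 had 17.3, 28.4 and 20.4 in P5 KO, against 24.2, 19.5 and 22.5 in P5 wt. Grn had 25.4, 23.3 and 20.4 in P5 KO, against 22.7, 30.4 and 30.3 in P5 wt. None of these 3 separated the genotypes either. In contrast Cd68, with 2.72, 3.64 and 1.20 in P5 KO, against 4.97, 4.34 and 3.91 in P5 wt, was lower in every P5 KO library, as were Tpp1 and the sulfatase gene Arsb, and none of these was called. Ctsd averaged 10.7 ± 4.09 in P5 KO and 4.10 ± 2.68 in P5 wt (SD, n = 3 each), with overlap and no call (adjusted p = 0.283).

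Markers of other cell types were higher in P5 KO libraries. The keratinocyte markers summed to 743, 244 and 268 in P5 KO, against 95.9, 106 and 73.3 in P5 wt. Of the 14 tested, 4 rose, against 1.15% of all genes tested. Neutrophil markers summed to 90.8, 51.9 and 248 in P5 KO, against 8.75, 9.04 and 20.03 in P5 wt, with S100a8 and S100a9 the main ones and Elane and Mpo at 0. Erythroid markers summed to 162, 234 and 1.60 in P5 KO, against 2.84, 1.09 and 0 in P5 wt. The part of these markers in the day 5 values was not tested.

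**Figure D3:**
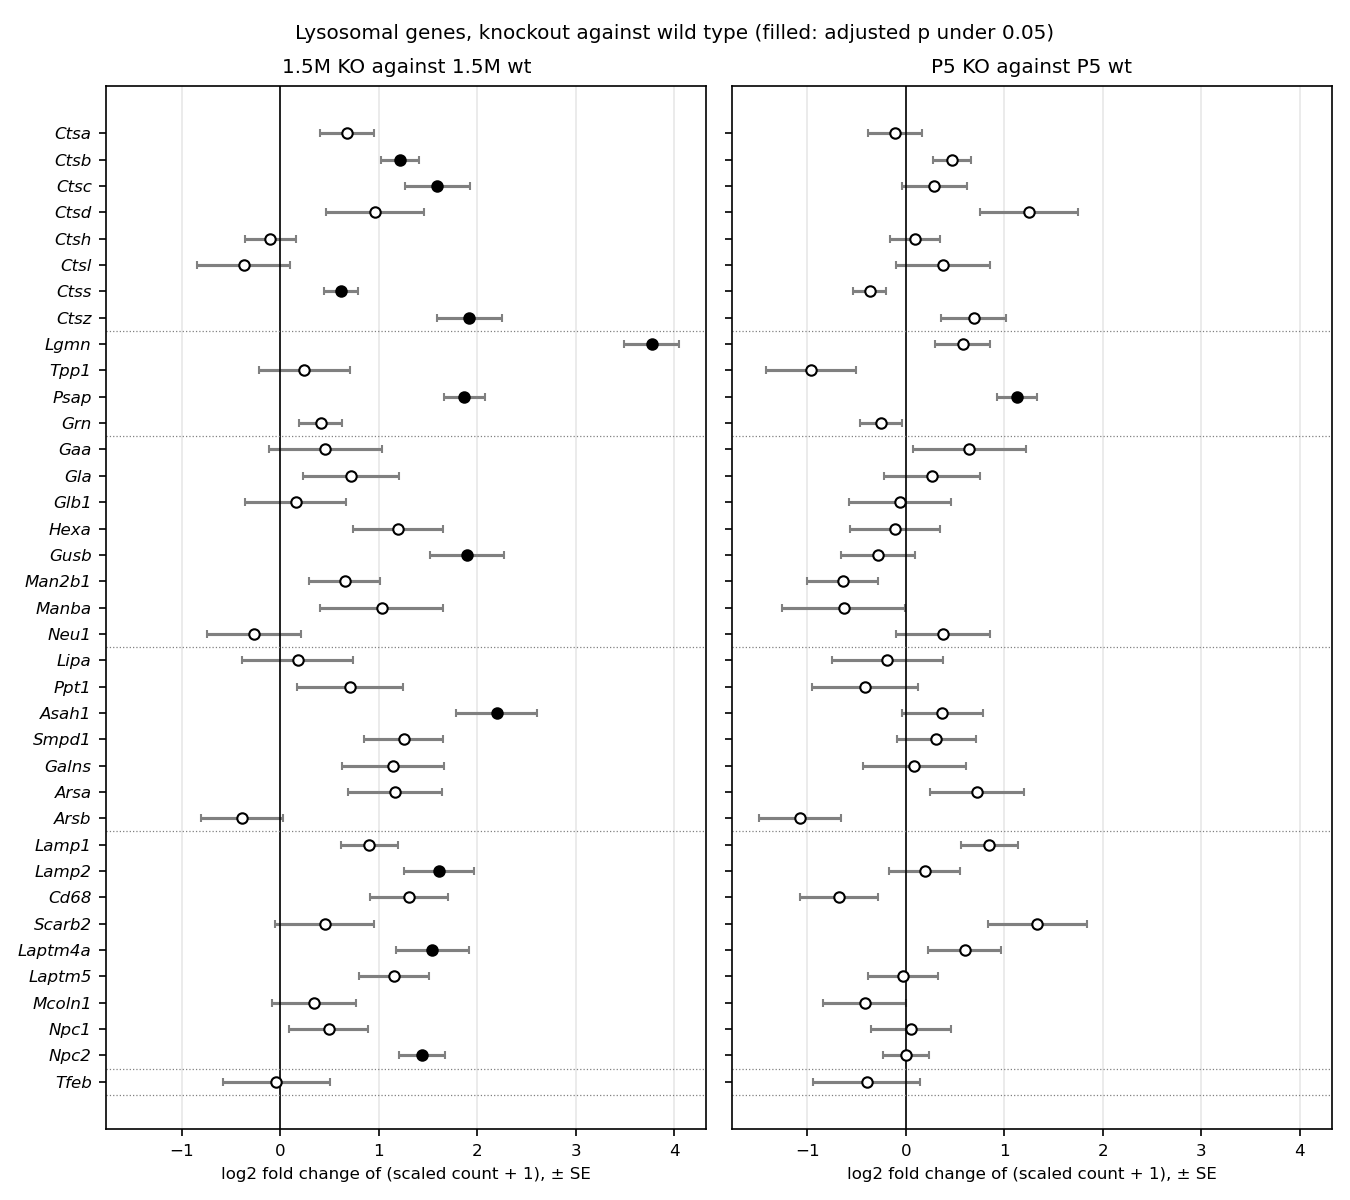
Log2 fold change (horizontal axes) with its SE for the 37 lysosomal genes, grouped by role from top to bottom, in 1.5M KO against 1.5M wt (left) and P5 KO against P5 wt (right). Filled points are called. The left panel has 11 filled points, all to the right of 0, and the right panel has 1, Psap at 1.13.

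The change with age in wild-type mice was read from 1.5M wt against P5 wt. Lysosomal genes fell in 1.5M wt, with 8 of 37 lower and 0 higher, where 2.84% of all genes tested were lower and 2.36% higher. Their median log2 fold change was −0.64, against −0.22 over all genes, and 35 of the 37 changes were negative. For 14 of the 37 all libraries of 1.5M wt lay below all of P5 wt, as for 13.2% of all genes tested, and for 0 they lay above, as for 6.06%. The median of all genes depended on the scaling, being −0.11 with median-of-ratios size factors and −0.06 after quantile normalization, under which 6 and 10 of the 37 fell.

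The 8 were Lgmn, Gusb, Asah1, Npc2, Man2b1, Psap, Ctsz and Ctss, and 7 of them, all but Man2b1, were also among the 11 that were higher in 1.5M KO than in 1.5M wt. Those 2 comparisons share the 1.5M wt libraries. Lgmn averaged 1.67 ± 0.897 in 1.5M wt and 25.6 ± 5.38 in P5 wt (SD, n = 3 each), about 15.3 times higher in P5 wt, with a log2 fold change of −3.34 (SE 0.28, adjusted p = 3.73e-08). Gusb averaged 3.13 ± 2.44 in 1.5M wt and 14.0 ± 3.99 in P5 wt (−2.01, SE 0.38, adjusted p = 0.00155). Npc2 averaged 7.52 ± 0.671 in 1.5M wt and 23.9 ± 3.99 in P5 wt (−1.54, SE 0.23, adjusted p = 0.000151). In these 3 genes the 2 ages did not overlap. Psap averaged 20.9 ± 3.82 in 1.5M wt and 54.1 ± 15.8 in P5 wt (−1.31, SE 0.21, adjusted p = 0.000217). Ctss averaged 50.1 ± 7.94 in 1.5M wt and 93.0 ± 10.8 in P5 wt (−0.88, SE 0.17, adjusted p = 0.00204). Both kept their calls in all 21 alternative settings, as did Lgmn and Npc2.

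Asah1, Ctsz, Man2b1 and Gusb were less firm in this comparison. Man2b1 had 15.7, 4.29 and 11.6 in 1.5M wt, against 25.6, 29.3 and 27.3 in P5 wt, without overlap (−1.46, SE 0.36, adjusted p = 0.0174). It was no longer called with 1.5M wt library 2 left out (adjusted p = 0.126), with P5 wt library 1 (0.0576), 2 (0.0665) or 3 (0.0549) left out, with median-of-ratios scaling (0.0513), or at equal depth (0.136). Asah1 averaged 0.535 ± 0.471 in 1.5M wt and 3.77 ± 1.42 in P5 wt (−1.64, SE 0.41, adjusted p = 0.0187). That call was lost without 1.5M wt library 1 (0.0865), without P5 wt library 1 (0.07) or 3 (0.0812), with a pseudocount of 10 (0.0826), with only the 6 libraries compared (0.0901), and at equal depth (0.129). Ctsz averaged 5.56 ± 2.82 in 1.5M wt and 13.8 ± 5.44 in P5 wt, with overlap (−1.20, SE 0.33, adjusted p = 0.0354), and 13 of its 21 alternatives lost the call. Among them were those without 1.5M wt library 2 (0.071) or 3 (0.198), P5 wt library 1 (0.149) or 3 (0.146), 1.5M KO library 1 (0.0525), 2 (0.0653) or 3 (0.0609), and P5 KO library 2 (0.0507). The Gusb call was lost at equal depth (0.0909). Equal depth left 4 of the 8 called, and leaving out P5 wt library 3 left 5.

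Some lysosomal genes kept a like level at both ages in wild type. Ctsh averaged 23.2 ± 5.34 in 1.5M wt and 23.3 ± 2.46 in P5 wt, and Grn 24.1 ± 3.52 in 1.5M wt and 27.8 ± 4.38 in P5 wt (SD, n = 3 each). Npc1 averaged 4.94 ± 1.20 in 1.5M wt and 4.99 ± 2.47 in P5 wt. The libraries of the 2 ages overlapped for all 3. Ctsb, Lamp2, Laptm4a and Laptm5 were lower in every 1.5M wt library than in any P5 wt library but not called, with adjusted p from 0.061 (Ctsb) to 0.0741 (Lamp2). Over the same libraries the macrophage and monocyte markers summed to 70.8 to 90.6 in 1.5M wt, against 150 to 189 in P5 wt, and the Langerhans cell markers to 429 to 521.5, against 62.9 to 77.2 in P5 wt.

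In the knockout the same ages, 1.5M KO against P5 KO, gave 1 called gene of the 37 and 0 that fell. Cd68 rose, with 6.23, 11.9 and 10.5 in 1.5M KO, against 2.72, 3.64 and 1.20 in P5 KO (1.61, SE 0.40, adjusted p = 0.0237). Its groups did not overlap, but the call was lost without 1.5M KO library 2 (0.154) or 3 (0.127), without P5 KO library 1 (0.052) or 3 (0.0998), at equal depth (0.235), and when the pseudocount was 0.1 (0.0621). The share called higher over all genes tested was 1.72%, and the share called lower 1.43%. The median log2 fold change of the 37 was 0.12, against −0.06 over all genes. All libraries of 1.5M KO lay above all of P5 KO for 6 of the 37 (8.15% of all genes tested) and below for 5 (10%). Lgmn averaged 34.3 ± 4.62 in 1.5M KO and 38.7 ± 8.80 in P5 KO, Npc2 22.1 ± 2.91 in 1.5M KO and 23.7 ± 1.02 in P5 KO, and Gusb 12.7 ± 3.24 in 1.5M KO and 11.1 ± 1.80 in P5 KO (SD, n = 3 each), all with overlapping libraries. Psap, Lamp1 and Ctsd were lower in every 1.5M KO library than in any P5 KO library without a call, Psap at 78.4 ± 9.81 in 1.5M KO and 117 ± 17.2 in P5 KO (adjusted p = 0.162) and Ctsd at 2.75 ± 1.93 in 1.5M KO and 10.7 ± 4.09 in P5 KO (adjusted p = 0.0651).

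**Figure D4:**
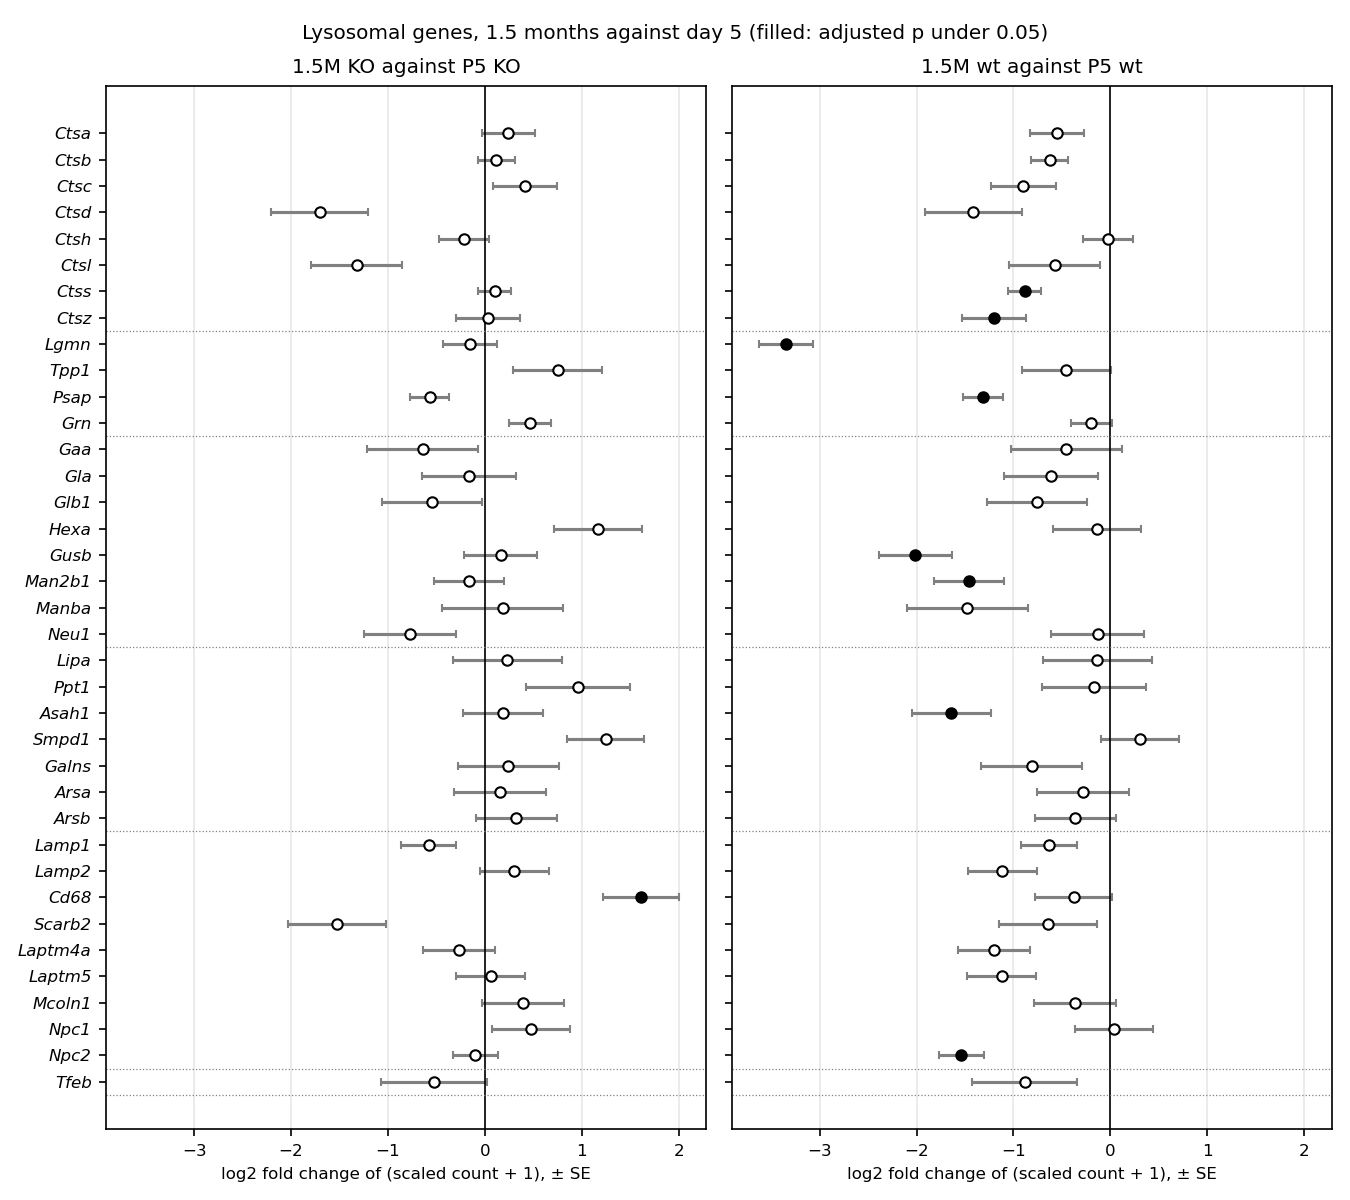
Log2 fold change (horizontal axes) with its SE for the 37 lysosomal genes, grouped by role, in 1.5M KO against P5 KO (left) and 1.5M wt against P5 wt (right). Filled points are called. The right panel has 8 filled points, all to the left of 0, with Lgmn at −3.34, and the left panel has 1, Cd68 at 1.61.

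Whether the knockout effect itself differed between the ages was tested as the effect at 1.5 months minus that at day 5. The difference was positive and called for 4 of the 37 genes, and negative and called for 0, against 1.32% and 0.678% of all genes tested. Lgmn had the largest difference (3.19, SE 0.40, adjusted p = 2.91e-05), kept in all 20 alternatives. Gusb followed (2.18, SE 0.53, adjusted p = 0.0305), then Npc2 (1.44, SE 0.33, adjusted p = 0.0189) and Ctss (0.99, SE 0.24, adjusted p = 0.0298). The count was 2 at equal depth and 1 to 4 with 1 library left out. It was 1 without 1.5M KO library 1, and 2 without 1.5M KO library 2 or 3, 1.5M wt library 1, P5 KO library 1 or 2, or P5 wt library 1 or 3. The Npc2 call was lost without 1.5M KO library 1 (0.0657) or P5 wt library 3 (0.0627). The Ctss and Gusb calls were each lost in 11 of 20 alternatives, with adjusted p up to 0.114 for Ctss without 1.5M KO library 3 and up to 0.264 for Gusb at equal depth. For Psap, which rose at both ages, the difference was not called (0.74, SE 0.29, adjusted p = 0.243). The same contrast read the other way gives the age effect in the knockout minus that in wild type, so it adds no separate test.

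Low levels limit what can be said of many of the 37. Group means of 15 genes were under 5 in every group: Ctsl, Tpp1, Gaa, Gla, Glb1, Manba, Neu1, Lipa, Ppt1, Smpd1, Galns, Arsa, Scarb2, Mcoln1 and Tfeb. None of them was called in any of the 5 comparisons. At such levels a group holds between 0 and 24 molecules of a gene over its 3 libraries, and a gene at 0 could be present at up to 3 molecules, which is 0.485 scaled counts for 1.5M KO, 0.831 for 1.5M wt, 0.907 for P5 KO and 0.895 for P5 wt, counting error only. Manba and Galns were at 0 in 1.5M wt, and Smpd1 was at 0 in P5 wt. In all, 13 of the 37 genes were called in at least 1 comparison and 24 in none.

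Some other enzymes of the same organelle also rose in 1.5M KO. Of 29 tested further lysosomal hydrolases and activators, 4 rose and 1 fell in 1.5M KO against 1.5M wt, where 3.24% of all genes tested rose and 2.04% fell. The gene that fell, Gm2a, which encodes an activator of ganglioside breakdown and is named after its values were seen, had 25.9, 36.8 and 46.5 in 1.5M KO, against 79.2, 64.4 and 63.1 in 1.5M wt (−0.93, SE 0.21, adjusted p = 0.00626, but 0.0578 without 1.5M KO library 1). The log2 fold change was positive for 24 of the 29 and negative for 5, with a median of 0.90, against 0.09 over all genes. Ifi30, the lysosomal thiol reductase of antigen processing, had 36.9, 30.3 and 38.3 in 1.5M KO, against 11.98, 20.03 and 13.3 in 1.5M wt (1.19, SE 0.25, adjusted p = 0.00367), and 18.2, 14.5 and 11.999 in P5 KO, against 19.9, 28.2 and 25.4 in P5 wt. It was not called at day 5 (−0.69, SE 0.25, adjusted p = 0.213), and the difference of its knockout effects was called (1.88, SE 0.35, adjusted p = 0.00339). The lysozyme genes Lyz1 and Lyz2 rose at both ages but are near-identical copies whose values hold fractions of molecules, so their split is uncertain. At day 5 the log2 fold change was 2.58 for Lyz1 (SE 0.46, adjusted p = 0.00423) and 2.75 for Lyz2 (SE 0.50, adjusted p = 0.00428, but 0.0505 at equal depth and 0.101 with a pseudocount of 0.1). At 1.5 months their calls were lost at equal depth (adjusted p = 0.0952 and 0.105), without 1.5M KO library 2 (0.0661 and 0.0631) and, for Lyz1, without library 3 (0.0589) and, for Lyz2, with a pseudocount of 10 (0.0957). Plbd1, a lysosomal phospholipase-like protein, rose at day 5, to 23.2 ± 4.29 in P5 KO, against 7.34 ± 2.12 in P5 wt (1.55, SE 0.30, adjusted p = 0.00749). At day 5 that list had 3 higher and 0 lower, against 1.15% and 0.649% of all genes tested.

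Further lysosomal membrane proteins had 5 of 25 tested genes higher and 0 lower in 1.5M KO against 1.5M wt, and 1 higher and 1 lower at day 5. Over all genes tested, 3.24% were higher and 2.04% lower at 1.5 months, and 1.15% and 0.649% at day 5. Slc11a1, the divalent metal transporter of phagosomes also called Nramp1, had 7.67, 4.97 and 7.43 in 1.5M KO, against 0, 0.715 and 0 in 1.5M wt (2.66, SE 0.45, adjusted p = 0.000408). At day 5 it had 2.72, 3.64 and 5.999 in P5 KO and was 0 in all P5 wt libraries, at least 4.60-fold higher against the floor of 3 molecules over the group, a call lost at equal depth (adjusted p = 0.106). Tmbim1 rose as well, to 9.86 ± 1.95 in 1.5M KO, against 1.08 ± 0.304 in 1.5M wt (2.38, SE 0.40, adjusted p = 0.000406). Slc29a3, a nucleoside transporter, rose (1.84, SE 0.42, adjusted p = 0.00852), a call lost without 1.5M KO library 2 (0.0631) or 1.5M wt library 1 (0.0646), with only the 6 libraries compared (0.0509), and at equal depth (0.135). Cd63, a tetraspanin of late endosomes, fell in P5 KO, with 4.54, 2.18 and 4.80, against 12.8, 15.2 and 11.7 in P5 wt (−1.60, SE 0.29, adjusted p = 0.00435, but 0.0564 at equal depth). At 1.5 months it had 17.3, 15.9 and 17.7 in 1.5M KO, against 12.9, 11.4 and 14.2 in 1.5M wt, and the difference of its knockout effects was called (1.98, SE 0.41, adjusted p = 0.00884). Litaf, an endosomal membrane protein, rose with age in wild type, with 23.0, 22.2 and 29.3 in 1.5M wt, against 4.97, 3.25 and 8.79 in P5 wt (2.03, SE 0.32, adjusted p = 0.000258).

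Cst3, which encodes cystatin C, a secreted inhibitor of cathepsins, fell in the knockout at both ages. It had 150.1, 149.6 and 159 in 1.5M KO, against 519, 508 and 523 in 1.5M wt (−1.75, SE 0.11, adjusted p = 2.43e-10). At day 5 it had 129.9, 148 and 144 in P5 KO, against 264, 257 and 322 in P5 wt (−0.99, SE 0.11, adjusted p = 3.28e-05). In both cases the groups were far apart, and both calls held in all 21 alternatives. It rose with age in wild type (0.88, SE 0.11, adjusted p = 1.65e-05), a call lost after quantile normalization (0.57). Of the 3 tested cystatin genes it alone was called between genotypes.

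**Figure D5:**
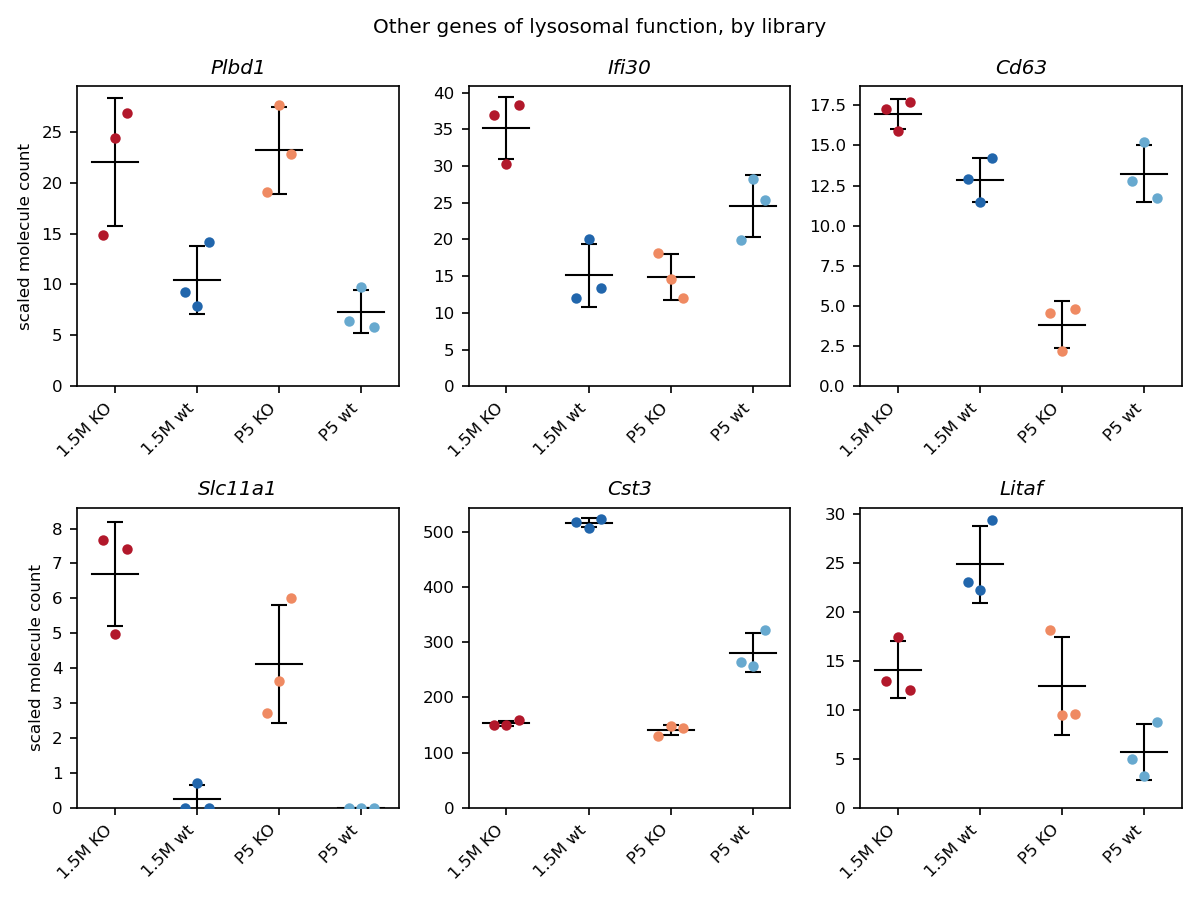
Scaled molecule counts (vertical axes, each from 0) of 6 other genes of lysosomal function, by group on the horizontal axis. Points are libraries, and bars are the mean ± SD (n = 3). Ifi30 lies between 30.3 and 38.3 in 1.5M KO, against 11.98 to 20.03 in 1.5M wt, while Cst3 lies between 149.6 and 159 in 1.5M KO, against 508 to 523 in 1.5M wt.

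Few genes of the machinery around the enzymes were called. Of 17 tested subunits of the vacuolar ATPase, the proton pump that acidifies lysosomes, 1 rose in 1.5M KO against 1.5M wt and 0 fell. That was Atp6ap2, at 9.86 ± 0.595 in 1.5M KO, against 3.32 ± 1.43 in 1.5M wt (1.39, SE 0.35, adjusted p = 0.0173), and the call was lost without 1.5M KO library 1 (0.0629), 2 (0.0631) or 3 (0.0829), without 1.5M wt library 3 (0.113), and at equal depth (0.177). For the 17 subunits the median log2 fold change was 0.48, against 0.09 over all genes. At day 5 the pump subunits had a median of −0.41, against −0.01 over all genes, and 0 were called. Summed over the subunits in the table, the scaled count was 93.3, 107 and 111 in 1.5M KO, against 86.2, 76.5 and 70.2 in 1.5M wt. At day 5 it was 72.7, 73.1 and 64.2 in P5 KO, against 94.5, 85.2 and 98.7 in P5 wt. The summed levels overlapped at neither age, higher in the knockout at 1.5 months and lower at day 5. The difference of the knockout effects was called for 0 of the subunits by limma. Of 23 genes for sorting enzymes to lysosomes 1 rose, the adaptor gene Ap1b1, at 5.82 ± 1.44 in 1.5M KO, against 0.603 ± 0.523 in 1.5M wt (2.13, SE 0.53, adjusted p = 0.0151). It was lost without 1.5M KO library 2 (0.0857) or 3 (0.111) or 1.5M wt library 2 (0.102). Among 21 tested genes of mTORC1 signalling at lysosomes and TFEB relatives 0 were called in any of the 5 comparisons by limma. Of 20 tested autophagy genes 0 rose and 1 fell. Gabarapl1, a member of the LC3 family, had 3.84, 1.49 and 1.92 in 1.5M KO, against 11.1, 15.7 and 16.9 in 1.5M wt (−2.23, SE 0.54, adjusted p = 0.0133). The call was lost without 1.5M KO library 2 (0.107) or 3 (0.0834) or 1.5M wt library 2 (0.0732) or 3 (0.0733), and with a pseudocount of 0.1 (0.334). Beside 3.24% of all genes higher and 2.04% lower, 1 called gene in each of the pump, sorting and autophagy lists is near the background. At day 5 none of these 4 lists held a called gene by limma, which does not show that their genes were unchanged.

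Few of the further lysosomal genes were called between the ages. In wild type, 2 of 25 tested membrane protein genes rose and 1 fell. Of the sorting genes 2 of 23 fell, and of the autophagy genes 1 of 20 rose. The hydrolase, pump and mTORC1 lists held 0 calls there, and over all genes tested 2.36% rose and 2.84% fell. In 1.5M wt against P5 wt, Slc15a3, a lysosomal peptide and histidine transporter, rose (log2 fold change 2.40, SE 0.47, adjusted p = 0.00242), Slc29a3 fell (−1.98, SE 0.42, adjusted p = 0.00564), and Gabarapl1 rose (2.94, SE 0.54, adjusted p = 0.00136, but 0.0615 with a pseudocount of 0.1). Ap1b1 and the sorting receptor gene Sorl1 also fell, with adjusted p of 0.0483 and 0.0353, but 17 and 12 of 21 alternatives lost these calls, with adjusted p up to 0.217 without P5 wt library 3 for Ap1b1 and up to 0.111 without P5 wt library 2 for Sorl1. In the knockout 1 of 29 hydrolase, 2 of 25 membrane protein, 1 of 17 pump and 1 of 20 autophagy genes rose, and 0 fell. The sorting and mTORC1 lists held 0 calls, and over all genes tested 1.72% rose and 1.43% fell. In 1.5M KO against P5 KO, Cd63 rose (1.94, SE 0.29, adjusted p = 0.000206), and so did Ifi30 (1.20, SE 0.25, adjusted p = 0.007, but 0.0582 without 1.5M KO library 3). The calls of Gpr137b, Atp6v0b and Sqstm1, all higher in 1.5M KO, were lost in 7, 8 and 7 of 21 alternatives, with adjusted p up to 0.253 and 0.401 at equal depth for the first 2 and up to 0.142 without 1.5M KO library 3 for Sqstm1. Cst6, a cystatin gene of the epidermis, fell with age in the knockout (−2.32, SE 0.49, adjusted p = 0.0074, but 0.0533 without P5 KO library 1). It also fell in wild type (−1.90, SE 0.49, adjusted p = 0.0206, lost in 6 of 21 alternatives). Keratinocyte markers fell over the same libraries, 12 of 14 tested in 1.5M KO and 5 of 14 in 1.5M wt, against 1.43% and 2.84% of all genes. The part of these markers in the Cst6 values was not tested.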

How the data were processed

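The deposited table holds a signal for 23420 gene symbols in 12 libraries. The authors' values sum to 37092 in each library and step in units worth 1 molecule, read from the values themselves with a tolerance of 0.01. In each of the 12 libraries fewer than 95 in 100 values came out whole, so no count test was run. TopHat 2 and mm10 are named in the submitters' processing notes. The annotation and strand setting are not given in the sources used here, so genes with overlapping partners are uncertain.

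Symbols above 0 in at least 3 of 12 libraries were tested. Values were taken as log2(value + 1) and fitted with limma 3.58.1 (eBayes with trend, R 4.3.3), with 4 group means over 12 libraries, two-sided tests and Benjamini-Hochberg adjustment over 10023 symbols at 0.05. The steps were checked on simulated data. Summaries used Python 3.11.15 with pandas 2.3.3, numpy 2.4.6 and matplotlib 3.10.9. The 37 genes and all lists were chosen with earlier results of these data known. Genes are printed by library where they were called in any comparison or averaged at least 20 in a group, and up to 3 called genes with the largest fold change per further list are named. Other genes are named by group mean or by count. Smpd1, Galns and Hexa by library, Gm2a and the MHC class II genes were chosen after their values were seen. One gene of the list of further hydrolases is not reported here and was taken out of its counts. Promoters are RefSeq windows of 300 bases on GRCm38.p6. The Runx core was added to the motifs later than the E-box and the CLEAR element.

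Alternatives were pseudocounts of 0.1 and 10, no filter, median-of-ratios scaling, quantile normalization, thinning to 30966 molecules (after rounding to whole molecules), only the 6 libraries compared, the replicate number as a block, and each library left out. Scaling to totals without keratinocyte, neutrophil and erythroid markers was chosen after seeing the data. The molecules of replicate libraries differed beyond counting error in every pair (chi-square of 1.17 to 2.18 for each degree of freedom), so none were merged. Depths of 30913 to 77420 molecules limit the precision of low genes, and floors cover counting error only.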

Additional observations from a re-analysis of the deposited data

Results flagged for a closer look

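For 4 of the 37 genes the knockout effect at 1.5 months differed from that at day 5 by the limma test of the difference itself. All 4 differences were positive, as were those called for 1.32% of all genes tested. The difference, as the effect at 1.5 months minus that at day 5 on the log2 scale, was 3.19 for Lgmn, 2.18 for Gusb, 1.44 for Npc2 and 0.99 for Ctss. Each of the 4 was higher in all 3 libraries of 1.5M KO than in any of 1.5M wt, and none separated P5 KO from P5 wt. Over all genes tested, 13.9% lay above in this way at 1.5 months, and 6.23% lay above and 6.02% below at day 5. The 4 were picked by the difference in these same libraries, so their separation adds no separate support. Of the further lysosomal genes, the difference was 1.88 for Ifi30 and 1.98 for Cd63, and it was −1.81 for Litaf and −0.76 for Cst3. Litaf had 12.9, 17.4 and 11.98 scaled counts in 1.5M KO, against 23.0, 22.2 and 29.3 in 1.5M wt, and 18.2, 9.45 and 9.60 in P5 KO, against 4.97, 3.25 and 8.79 in P5 wt. Its difference (SE 0.46, adjusted p = 0.0367 by limma) was lost in 12 of 20 alternatives, with adjusted p up to 0.141 at equal depth. That of Cst3 was lost after quantile normalization (adjusted p = 0.577). Over the same libraries 7 of 12 tested macrophage and monocyte markers had a called positive difference, against 1.32% of all genes tested. The part of these markers in these results was not tested.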

How the results depend on the processing

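Of 521 values of the 25 calls among the 37 genes under the alternatives, 450 kept the call, 71 lost it and 0 reversed, and 13 calls were never lost. For 1.5M KO against 1.5M wt the count of 11 ranged from 9 at equal depth to 12, and from 8 to 12 with 1 library left out. For P5 KO against P5 wt the count was 0 at equal depth and 1 to 2 with 1 library left out. For 1.5M wt against P5 wt it was 4 at equal depth and 5 to 8 with 1 library left out. For 1.5M KO against P5 KO it was 0 with a pseudocount of 0.1, 3 with a pseudocount of 10 (1 higher and 2 lower) and 0 to 1 with 1 library left out. At equal depth that comparison also had 1 call, but a lower one. The difference of knockout effects gave 2 at equal depth and 1 to 4 with 1 library left out. The summed level was 256.6 in 1.5M wt and 427.8 in P5 wt under median-of-ratios scaling, and in P5 wt 487.4 after quantile normalization and 461.2 at equal depth. The causes of these shifts were not tested, except that leaving libraries out or thinning lowers the information by construction. The replicate numbers did not pair the libraries: deviations of same-numbered libraries correlated at −0.0349 to 0.0835 over 18 pairs, and those of other libraries at −0.0753 to 0.0786 over 36. With the replicate number as a block the counts were 12, 1, 8, 1 and 4, against 11, 1, 8, 1 and 4 without it. The difference uses all 12 libraries, so the fit of only 6 was not run for it. With 3 libraries a group and 1 molecule worth up to 1.20 scaled counts, no gene of the 37 with all group means under 5 was called.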
